A study of Mus musculus with 12 samples.

Results

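The 9 genes described here encode the core of the inflammasome, an intracellular complex of innate immunity: the sensors Nlrc4, Naip1, Naip5, Nlrp6, Aim2 and Nlrp3, the adaptor Pycard (ASC) and the inflammatory caspases Casp1 and Casp4. They were picked by symbol from a fixed list, and all 9 were found among the 22063 genes of the expression table. This list and the other gene lists below were chosen with earlier results of these data known. The intestines of female C57BL6/J mice, purchased at 7 to 8 weeks of age and acclimated for 1 week, were taken for RNA sequencing 48 h after 10 Gy of whole-body irradiation. LL_WBI mice received the LL mode, in which the mean and the instantaneous dose rates are conventional, on a clinical linear accelerator. HH_WBI mice received the HH mode, in which both dose rates are ultra-high, on a compact linear accelerator. LL_Ctrl and HH_Ctrl are the non-irradiated controls of each mode, and each of the 4 groups holds 3 libraries. No group carried a transgene or a deletion, and mode cannot be told apart from machine and handling. Neither the labels nor the methods say that each library came from its own mouse, so the p-values below reflect only how far these libraries scatter, which may be technical.

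As background, a sensor that meets its trigger recruits caspase-1, directly or through Pycard, and active caspase-1 cleaves the precursors of the cytokines IL-1β and IL-18 and the pore-forming protein gasdermin D. In the gut these genes are used both by epithelial cells and by resident macrophages. Naip proteins bind bacterial flagellin or secretion system parts and then engage Nlrc4, Aim2 binds DNA in the cytosol, Nlrp3 responds to many kinds of cell damage, and mouse Casp4 (caspase-11) binds bacterial lipopolysaccharide.

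Levels are given in FPKM, a unit that counts sequenced fragments relative to the length of the transcript and the size of the library, so they can be set side by side between genes. Within a group they follow the order of libraries 1, 2 and 3. Differences are on the scale of log2(FPKM + 0.1) and were tested with limma, which pools information on the spread across genes, among those whose mean in the libraries compared reached 0.5 FPKM. Here, adjusted p stands for the Benjamini-Hochberg value over all genes of a comparison. A gene is called where this is below 0.05 and the log2 difference is larger than 1 in size. Nlrp3 did not reach 0.5 FPKM in any comparison, and the other 8 genes were tested in each.

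The stretches of DNA before the start sites of 4 members are shown because these genes carry the main contrasts below: Pycard, which was lower after HH irradiation, Nlrc4, which was higher, and the Naip genes, whose reads are hard to keep apart. All 9 members had a window in the promoter table, and the sequences are those of RefSeq for GRCm38.p6, 250 bases before the start site, written 5′ to 3′ on the strand of the gene. In Pycard (chr7:127993868-127994117, minus strand) and Nlrc4 (chr17:74459109-74459358, minus strand) capitals mark the letters GGAAG, the core bound by ETS factors, on either strand. In Naip1 (chr13:100452865-100453114, minus strand) and Naip5 (chr13:100247337-100247586, minus strand) capitals mark the longest run of letters common to both.
Pycard: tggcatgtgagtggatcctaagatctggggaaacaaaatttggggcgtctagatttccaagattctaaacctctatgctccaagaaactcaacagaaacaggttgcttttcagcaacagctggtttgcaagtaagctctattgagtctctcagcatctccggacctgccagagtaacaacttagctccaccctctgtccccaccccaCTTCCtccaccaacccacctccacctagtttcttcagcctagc
Nlrc4: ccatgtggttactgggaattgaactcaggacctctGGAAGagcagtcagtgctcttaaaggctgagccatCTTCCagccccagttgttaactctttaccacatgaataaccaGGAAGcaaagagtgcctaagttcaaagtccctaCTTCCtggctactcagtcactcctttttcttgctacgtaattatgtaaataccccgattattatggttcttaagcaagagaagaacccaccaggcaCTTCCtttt
Naip1: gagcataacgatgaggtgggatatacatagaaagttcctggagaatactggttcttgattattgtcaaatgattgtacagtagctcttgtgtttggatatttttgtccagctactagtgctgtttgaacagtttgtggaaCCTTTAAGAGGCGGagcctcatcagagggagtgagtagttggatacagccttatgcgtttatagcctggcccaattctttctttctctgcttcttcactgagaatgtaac
Naip5: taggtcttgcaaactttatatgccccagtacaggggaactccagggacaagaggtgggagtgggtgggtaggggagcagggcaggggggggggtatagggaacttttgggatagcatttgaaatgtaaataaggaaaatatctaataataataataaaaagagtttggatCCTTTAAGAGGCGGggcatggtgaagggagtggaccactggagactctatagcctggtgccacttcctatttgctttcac

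The GGAAG core occurred 5 times in the Nlrc4 window and 1 time in the Pycard window, and 64.1% of 32851 windows of this length held it at least 1 time. The share of windows with 5 matches was not counted. Among the other members it occurred 4 times each in Aim2 and Nlrp3 and 3 times in Casp1. Casp4 and Naip5 held it 1 time each, and Nlrp6 and Naip1 0 times. The run shared by Naip1 and Naip5 was 14 bases long and began 110 bases before the start site of Naip1 and 80 bases before that of Naip5. It was found in 6 of the 32851 windows, those of Gm20275, Itga3, Naip1, Naip5, Pak4 and Sec14l2. These matches describe the letters only.

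Before the members, some features of the libraries have to be stated. Genes of pancreatic acinar cells took 6.8% of all FPKM in LL_WBI 1 and 24.4% in LL_WBI 2, against 0.0252% to 0.27% in the other 10 libraries. LL_WBI 3 stood apart from these in another way: its 14 macrophage markers summed to 574 FPKM, its 8 neutrophil markers to 20.7 FPKM and its 8 Paneth cell markers to 30483 FPKM, each the highest of the 12 libraries. Some genes of gut segments also differed. The ileal bile acid carrier gene Fabp6 was at 82.2 FPKM in LL_WBI 3 and 586 FPKM in HH_WBI 3 against 0.078 to 8.75 FPKM elsewhere. The colonic water channel gene Aqp8 was at 17.2 to 60.8 FPKM in LL_Ctrl against 0.027 to 0.104 FPKM in HH_Ctrl. It was at 13.0, 3.74 and 0.038 FPKM in LL_WBI. Of the other listed colon genes, Slc37a2 was at 1.79 to 1.88 FPKM in LL_Ctrl against 0.206 to 0.413 FPKM in HH_Ctrl. In LL_Ctrl, Car1, Prdx6b and Hoxd13 were at 0, and Hoxd10 and Muc1 reached at most 0.023 and 0.131 FPKM. Whether the controls came from different segments was not tested, and segment and group cannot be told apart there. All 12 markers of intestinal epithelium were present in every library, with a sum of 6189 to 16892 FPKM. The read depth is not known, but steps between low values put 11 libraries at 91.2% to 107% of the depth of LL_Ctrl 1 and LL_WBI 3 at 75.9%. The 3 LL_WBI libraries thus differed strongly among themselves, and the results that rest on them are given below with and without libraries of this group.

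Pycard, the adaptor, was the member with the clearest difference: it was 4.35-fold lower in HH_WBI than in HH_Ctrl and lower in each LL_WBI library than in any LL_Ctrl library. Nlrc4 and Aim2 were higher in HH_WBI than in HH_Ctrl, by 2.14-fold and 3-fold, and the values of Naip1, Naip5 and Casp4 pointed the same way at smaller size. Neither Nlrc4 nor Aim2 was called with LL_Ctrl or all 6 controls in place of HH_Ctrl. The same held once trends on GC content and transcript length were removed. Casp1 and Naip1 were lower in HH_Ctrl than in LL_Ctrl, by 3.04-fold and 2.49-fold, and this difference between the controls was smaller, with no member called, once trends on GC content and transcript length were removed. No member was called between the irradiated groups or between LL_WBI and LL_Ctrl.

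**Figure D1:**
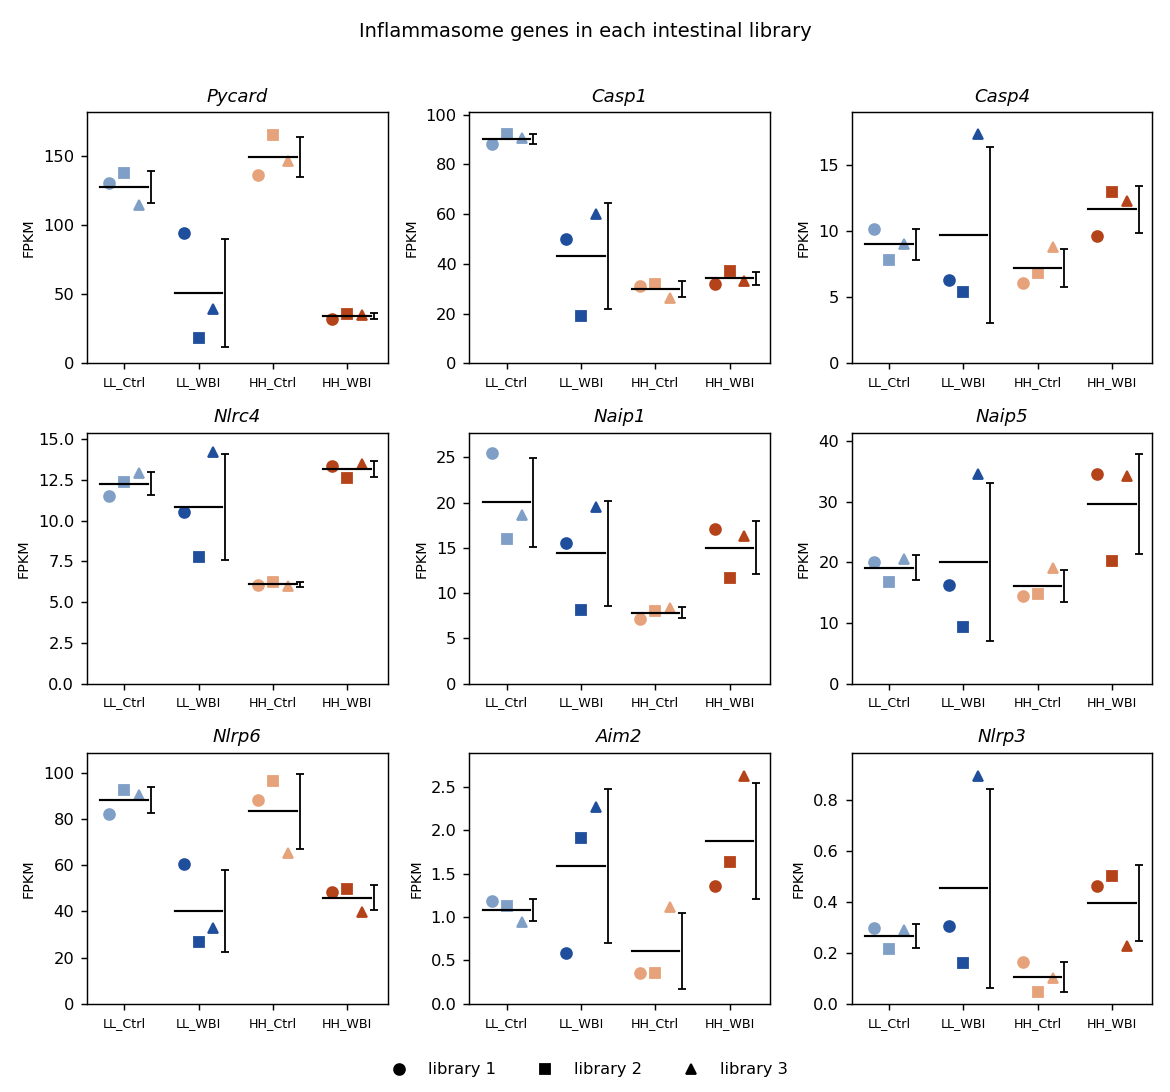
Level in FPKM (vertical axis, linear and starting at 0) of each of the 9 genes in the 12 libraries, by group (horizontal axis). Symbols are libraries 1, 2 and 3, horizontal lines are group means and vertical bars are 1 SD on each side (n = 3). Pycard lay at 31.8 to 35.6 FPKM in the 3 HH_WBI libraries against 136 to 165 FPKM in HH_Ctrl, and LL_WBI had the largest SD of the 4 groups for all 9 genes.

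Nlrc4 (ENSMUSG00000039193), which assembles the inflammasome of the Naip receptors, was at 11.5, 12.4 and 12.9 FPKM in LL_Ctrl and at 10.6, 7.78 and 14.3 FPKM in LL_WBI. It was at 6.05, 6.26 and 5.99 FPKM in HH_Ctrl and at 13.4, 12.6 and 13.5 FPKM in HH_WBI. The HH_Ctrl libraries were below every other library, and the HH_WBI libraries lay at the level of LL_Ctrl or slightly above it. Nlrc4 rose by 1.10 on the log2 scale in HH_WBI against HH_Ctrl (standard error 0.11, 95% interval 0.85 to 1.35, limma adjusted p = 0.00103). In LL_WBI against LL_Ctrl its log2 difference was -0.22 (interval -0.76 to 0.32, adjusted p = 0.621), and the libraries of these groups overlapped.

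Naip1 (ENSMUSG00000021640), a receptor for the needle protein of bacterial secretion systems in mice, was at 25.5, 15.9 and 18.7 FPKM in LL_Ctrl and at 15.5, 8.14 and 19.6 FPKM in LL_WBI. It was at 7.17, 8.02 and 8.30 FPKM in HH_Ctrl and at 17.0, 11.6 and 16.3 FPKM in HH_WBI. The HH_Ctrl libraries and LL_WBI 2 were the low ones, and HH_Ctrl did not overlap with HH_WBI, whereas LL_Ctrl and LL_WBI overlapped. The log2 difference of Naip1 in HH_WBI against HH_Ctrl was 0.91 (standard error 0.17, adjusted p = 0.00589), which is past the adjusted p but under the fold limit. Without HH_WBI 2 it was 1.08 (adjusted p = 0.0029), past both.

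Naip5 (ENSMUSG00000071203), a mouse receptor for flagellin, was at 20.1, 16.7 and 20.5 FPKM in LL_Ctrl and at 16.3, 9.31 and 34.6 FPKM in LL_WBI. It was at 14.4, 14.8 and 19.1 FPKM in HH_Ctrl and at 34.5, 20.2 and 34.2 FPKM in HH_WBI. LL_WBI 3, HH_WBI 1 and HH_WBI 3 held the highest values, and these were also the libraries with the highest sums of Paneth cell markers (30483, 14134 and 18651 FPKM, against 1669 to 11092 FPKM in the others). The match was not particular to Paneth cells. The same 3 libraries had the highest sums of macrophage markers (574, 419 and 424 FPKM, against 85.9 to 406 FPKM in the others). They were also the highest in Fabp6 (82.2, 8.75 and 586 FPKM, against 0.078 to 2.59 FPKM). The part of Paneth cells, of macrophages and of the gut segment in this result was not tested. The log2 difference of Naip5 was 0.85 in HH_WBI against HH_Ctrl (standard error 0.22, adjusted p = 0.0227), under the fold limit. It was 1.10 without HH_WBI 2 (adjusted p = 0.00367) and 0.72 without HH_WBI 3 (adjusted p = 0.0601). In LL_WBI against LL_Ctrl it was -0.13 (interval -1.12 to 0.86, adjusted p = 0.883).

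Naip1, Naip2, Naip5 and Naip6 are near-identical neighbours on chromosome 13 whose reads the authors' counting could have shared out between them, so the value of each single gene is uncertain. Their sum was 64.6 to 82.4 FPKM in LL_Ctrl, 34.2 to 94.97 FPKM in LL_WBI, 42.2 to 48.3 FPKM in HH_Ctrl and 58.0 to 95.8 FPKM in HH_WBI. The sum, which depends less on how reads are shared out among these copies, had a log2 difference of 0.79 in HH_WBI against HH_Ctrl (interval 0.37 to 1.22, limma adjusted p = 0.0138) and of -0.72 in HH_Ctrl against LL_Ctrl (interval -0.97 to -0.48, adjusted p = 0.00148). Both are past the adjusted p and under the fold limit. Naip1 made up 24.2% to 30.9% of the sum in LL_Ctrl and 17% to 17.9% in HH_Ctrl, with no overlap between these controls.

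**Figure D2:**
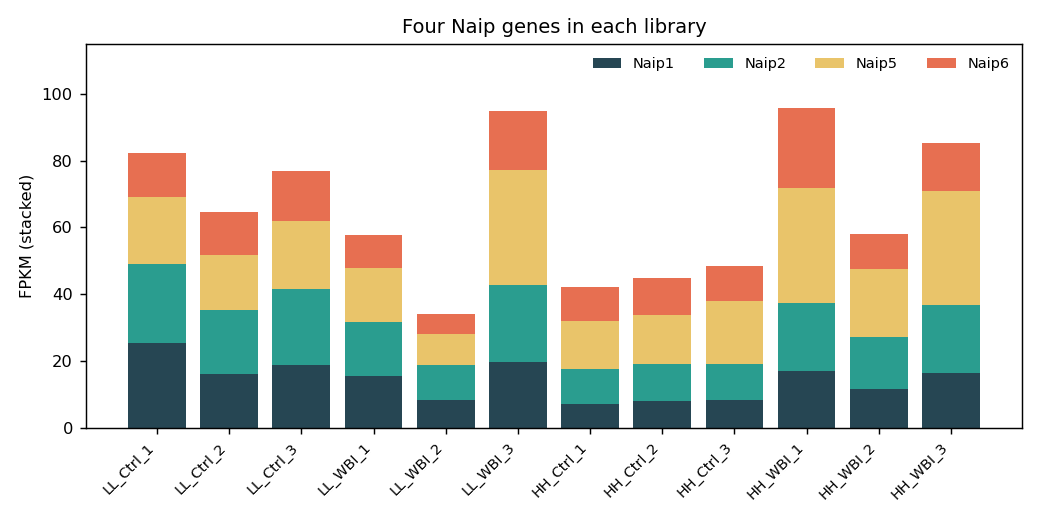
Stacked level in FPKM (vertical axis, starting at 0) of Naip1, Naip2, Naip5 and Naip6 in each of the 12 libraries (horizontal axis). The 3 HH_Ctrl bars reach 42.2 to 48.3 FPKM, the 3 LL_Ctrl bars 64.6 to 82.4 FPKM, and LL_WBI 2 is the lowest of all at 34.2 FPKM.

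Nlrp6 (ENSMUSG00000038745), a sensor known mainly from the intestinal epithelium, was at 82.0, 92.3 and 90.3 FPKM in LL_Ctrl and at 60.6, 26.96 and 33.0 FPKM in LL_WBI. It was at 88.3, 96.4 and 65.3 FPKM in HH_Ctrl and at 48.5, 49.6 and 40.0 FPKM in HH_WBI. All 6 irradiated libraries were below all 6 controls. The log2 difference was -1.22 in LL_WBI against LL_Ctrl (interval -1.91 to -0.53, limma adjusted p = 0.16) and -0.84 in HH_WBI against HH_Ctrl (interval -1.22 to -0.46, adjusted p = 0.00741), so it passed the adjusted p in the HH mode only and was short of the fold limit there. Whether the responses differ was tested directly and gave 0.38 (interval -0.41 to 1.17, adjusted p = 0.587).

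Aim2 (ENSMUSG00000037860), the DNA sensor, was low throughout, at 1.18, 1.13 and 0.942 FPKM in LL_Ctrl and at 0.586, 1.91 and 2.27 FPKM in LL_WBI. It was at 0.361, 0.352 and 1.12 FPKM in HH_Ctrl and at 1.36, 1.63 and 2.63 FPKM in HH_WBI. HH_Ctrl 3 was as high as the LL_Ctrl libraries, and the HH groups still did not overlap. Aim2 rose by 1.59 on the log2 scale in HH_WBI against HH_Ctrl (standard error 0.45, interval 0.54 to 2.63, limma adjusted p = 0.0289), and a pseudocount of 0.1 FPKM understates changes at such levels. This call was lost in some of the fits that left out 1 library, at log2 differences of similar size. The adjusted p was 0.0919 without HH_Ctrl 1, 0.0853 without HH_Ctrl 2, 0.0551 without HH_WBI 2 and 0.074 without HH_WBI 3, at log2 differences of 1.36, 1.34, 1.66 and 1.33.

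Nlrp3 (ENSMUSG00000032691), the best known sensor of macrophages, was at 0.297, 0.214 and 0.289 FPKM in LL_Ctrl, at 0.306, 0.16 and 0.895 FPKM in LL_WBI, at 0.165, 0.048 and 0.101 FPKM in HH_Ctrl and at 0.463, 0.501 and 0.227 FPKM in HH_WBI. Its highest value was in LL_WBI 3, and the HH groups did not overlap. Tested without the limit on low values, among 17854 genes, its log2 difference in HH_WBI against HH_Ctrl was 1.27 (interval 0.48 to 2.06, limma adjusted p = 0.031). In the same way it was -0.87 in HH_Ctrl against LL_Ctrl (limma adjusted p = 0.0346). Between the irradiated groups, HH_WBI against LL_WBI, it was 0.025 (limma adjusted p = 0.993). With no depth known, how many reads stand behind these values cannot be said.

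Pycard (ENSMUSG00000030793), the adaptor that joins sensors to caspase-1, was at 130.04, 137 and 114 FPKM in LL_Ctrl and at 94.0, 18.4 and 39.5 FPKM in LL_WBI. It was at 136, 165 and 146 FPKM in HH_Ctrl and at 31.8, 35.6 and 34.8 FPKM in HH_WBI. Every irradiated library was below every control, tightly so in the HH mode and with a wide spread in the LL mode. Pycard fell by 2.12 on the log2 scale in HH_WBI against HH_Ctrl (standard error 0.11, 95% interval -2.37 to -1.87, limma adjusted p = 0.000214), and by p it was number 4 of 12760 genes. In LL_WBI against LL_Ctrl the log2 difference was -1.63 (standard error 0.52, interval -2.84 to -0.42, adjusted p = 0.207), and without LL_WBI 1 it was -2.23 (adjusted p = 0.0273). The difference between the responses was -0.49 (interval -1.77 to 0.79, adjusted p = 0.68), an interval wide enough to hold a larger fall in either mode. The intestine is a mixture of cells, and here as for every gene below and above, fewer cells of a type and less RNA per cell cannot be told apart.

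Casp1 (ENSMUSG00000025888), the caspase that the canonical sensors activate, was at 88.2, 92.3 and 90.4 FPKM in LL_Ctrl and at 49.97, 19.1 and 60.0 FPKM in LL_WBI. It was at 31.2, 31.97 and 26.2 FPKM in HH_Ctrl and at 32.1, 37.1 and 33.2 FPKM in HH_WBI. The LL_Ctrl libraries stood above the other 9, while the HH_WBI libraries lay just above those of HH_Ctrl. The log2 difference was 0.20 in HH_WBI against HH_Ctrl (interval -0.07 to 0.47, limma adjusted p = 0.216) and -1.23 in LL_WBI against LL_Ctrl (interval -2.15 to -0.30, adjusted p = 0.209). The difference between these responses was 1.42 (interval 0.43 to 2.41, adjusted p = 0.0773), which did not pass.

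Casp4 (ENSMUSG00000033538), the lipopolysaccharide-binding caspase of the non-canonical pathway, was at 10.1, 7.82 and 9.05 FPKM in LL_Ctrl and at 6.31, 5.39 and 17.3 FPKM in LL_WBI. It was at 6.06, 6.79 and 8.82 FPKM in HH_Ctrl and at 9.64, 13.0 and 12.3 FPKM in HH_WBI. LL_WBI 3 was the highest of the 12 libraries and the other LL_WBI libraries were the pair below LL_Ctrl, so the group held both directions. The log2 difference was 0.69 in HH_WBI against HH_Ctrl (interval 0.27 to 1.11, limma adjusted p = 0.0222), under the fold limit, and -0.09 in LL_WBI against LL_Ctrl (interval -1.05 to 0.87, adjusted p = 0.914).

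The order of the levels differed between HH_Ctrl and HH_WBI, and between the controls. In LL_Ctrl, Pycard stood first at 127 ± 11.6 FPKM (SD, n = 3), followed by Casp1 at 90.3 ± 2.05 and Nlrp6 at 88.2 ± 5.47 FPKM, which did not differ beyond their spread. Naip1 (20.0 ± 4.91 FPKM) and Naip5 (19.1 ± 2.09 FPKM) were also level with each other there, followed by Nlrc4, Casp4, Aim2 and Nlrp3 (12.3 ± 0.704, 9 ± 1.16, 1.08 ± 0.124 and 0.267 ± 0.0458 FPKM). In HH_Ctrl Pycard (149 ± 14.5 FPKM) was again first and Casp1 (29.8 ± 3.13 FPKM) was far below Nlrp6 (83.3 ± 16.1 FPKM). In HH_WBI Nlrp6 led at 46 ± 5.26 FPKM, Pycard and Casp1 were both at 34.1 FPKM (SD 2.04 and 2.67) and Naip5 followed at 29.6 ± 8.19 FPKM. In LL_WBI the SD of Pycard (39 FPKM at a mean of 50.6 FPKM) spanned Casp1 (43.0 ± 21.3 FPKM) and Nlrp6 (40.2 ± 17.9 FPKM), so no order among these can be given.

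The first comparison asks what LL irradiation did. None of the 8 tested members was called, where 0.247% of all 12946 genes tested were called with limma. At an unadjusted p under 0.05 there were 3 of 8, Pycard, Nlrp6 and Casp1, all with lower values, against 18.3% of all genes. The same 3 were without overlap between the groups, as were 28.9% of all genes, 19% with lower values. The median log2 difference over the 8 was -0.38, beside -0.12 over all genes. Without LL_WBI 1, Pycard and Nlrp6 were called, Nlrp6 at -1.56 (adjusted p = 0.0158), in a fit that called 293 genes higher and 339 lower in place of 22 and 10. With LL_WBI 1 and LL_WBI 2 both left out, an alternative chosen after seeing the data that rests on the single library LL_WBI 3 and assumes it varies like the controls, Pycard (-1.68, adjusted p = 0.00181), Nlrp6 (-1.41, adjusted p = 0.00184) and Aim2 (1.01, adjusted p = 0.0328) were called, along with many others, 1276 genes higher and 566 lower in all.

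The second comparison asks what HH irradiation did. Of the 8 tested members 3 were called, 2 higher (Nlrc4 and Aim2) and 1 lower (Pycard), where 12.4% of all 12760 genes were called, 10% higher and 2.38% lower. Nlrp6, Naip1, Naip5 and Casp4 were past the adjusted p alone. At an unadjusted p under 0.05 there were 7 of 8, beside 47.4% of all genes. All 8 were without overlap between HH_WBI and HH_Ctrl, 6 higher and 2 lower, beside 51.9% of all genes, 30.1% higher and 21.7% lower. Their median log2 difference was 0.77, beside 0.09 over all genes. When every library was rescaled by the median ratio to a common reference, each log2 difference in this comparison moved down by about the same step, and Nlrc4 came to 0.97 (adjusted p = 0.00205), just under the fold limit, as it did at 1.00 with a pseudocount of 1 FPKM (adjusted p = 0.000996).

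**Figure D3:**
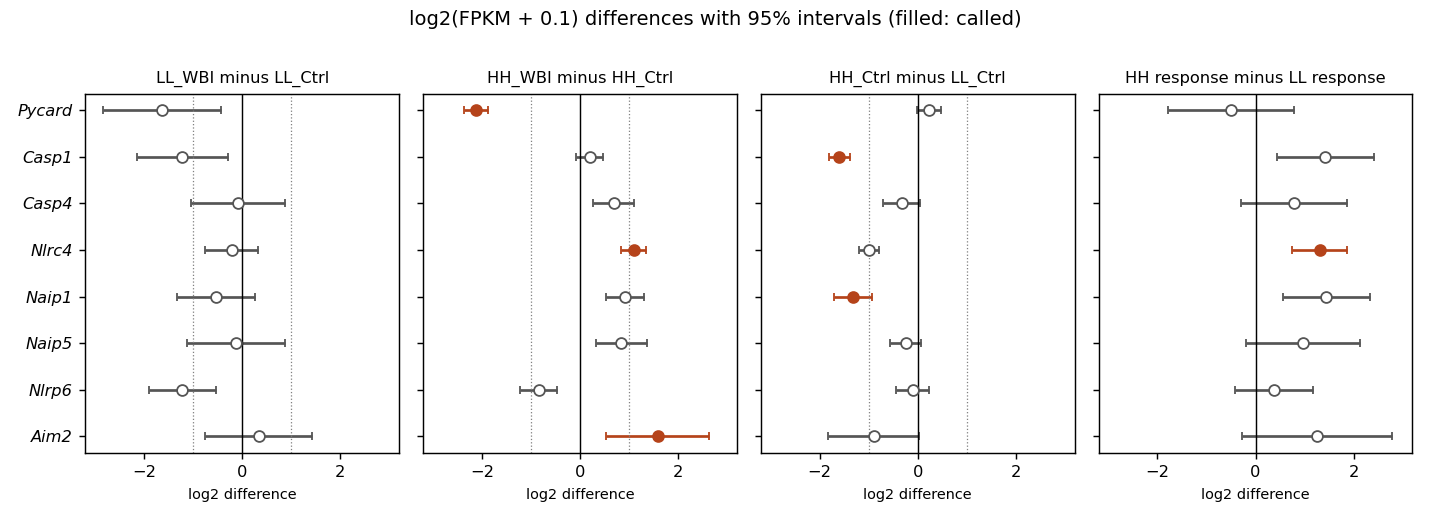
Difference on the scale of log2(FPKM + 0.1) (horizontal axis) for the 8 tested genes in 4 comparisons, one panel each. Points are limma estimates, bars are 95% intervals, filled points are called genes and dotted lines mark the fold limit. Pycard is at -1.63 in the LL panel and at -2.12 in the HH panel, while Casp1 and Naip1 are filled only in the panel of the controls.

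The third comparison asks whether the controls of the modes share a baseline. Casp1 was lower in HH_Ctrl than in LL_Ctrl (log2 difference -1.602, standard error 0.09, limma adjusted p = 7.41e-05), and so was Naip1 (log2 difference -1.32, standard error 0.17, adjusted p = 0.000805). These were the 2 called of 8, where 14.2% of 12595 genes were called and 11.9% were called lower. Nlrc4 came next, at -0.995 (interval -1.20 to -0.79, adjusted p = 0.00022), just short of the fold limit, and was past it without LL_Ctrl 1 (-1.04, adjusted p = 0.00104) or without HH_Ctrl 2 (-1.01, adjusted p = 0.000602). Casp1, Naip1 and Nlrc4 were the 3 members at an unadjusted p under 0.05, beside 53.1% of all genes, and the 3 without overlap, beside 57.7% of all genes and 38.2% with lower values in HH_Ctrl. Aim2 was at -0.90 (adjusted p = 0.104) and at -1.37 without HH_Ctrl 3 (adjusted p = 0.00458). Pycard (0.23, adjusted p = 0.108) and Nlrp6 (-0.10, adjusted p = 0.599) were not called.

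HH_Ctrl enters both the second and the third comparison, so a low value there raises the difference in one and lowers it in the other. Set against LL_Ctrl in place of its own controls, HH_WBI had a log2 difference of -1.90 for Pycard (limma adjusted p = 0.000148), 0.10 for Nlrc4 (adjusted p = 0.47), 0.69 for Aim2 (adjusted p = 0.0916), -0.41 for Naip1 (adjusted p = 0.175) and -1.40 for Casp1 (adjusted p = 0.000215). Pycard thus kept its call whichever controls were used, Nlrc4 and Aim2 were called against HH_Ctrl and not against LL_Ctrl, and Casp1 was lower against LL_Ctrl alone. Against all 6 controls together Pycard was at -2.01 (adjusted p = 2.75e-05), Nlrc4 at 0.60 (adjusted p = 0.183) and Aim2 at 1.14 (adjusted p = 0.0894).

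**Figure D4:**
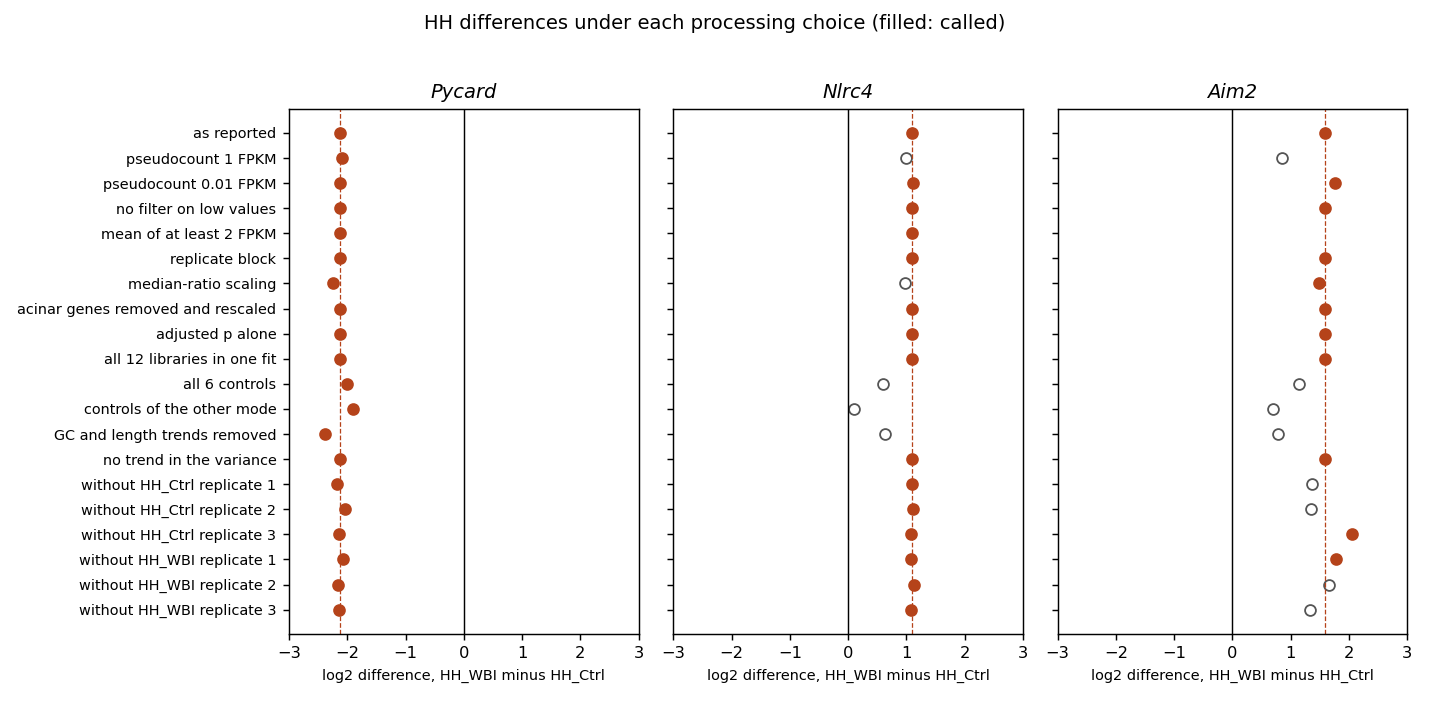
Difference HH_WBI minus HH_Ctrl on the log2 scale (horizontal axis) for Pycard, Nlrc4 and Aim2 under each processing choice (vertical axis), with filled points where the gene was called and a dashed line at the value reported. Pycard is filled in every line, from -2.39 to -1.90, while Nlrc4 drops to 0.10 and Aim2 to 0.69 with the controls of the other mode.

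Base composition moved with these comparisons. Among the fifth of tested genes with the lowest GC content of their transcripts the median log2 difference was 0.51 in HH_WBI against HH_Ctrl and -0.72 in HH_Ctrl against LL_Ctrl, and among the fifth with the highest it was -0.13 and 0.16. Casp1 has a GC content of 41.1%, below which lay 4.77% of the tested genes, Casp4 one of 42%, Aim2 45.2%, Naip5 45.6%, Naip1 45.9% and Nlrc4 47.8%, all below the median of 50.9%. Pycard (49.6%) lies near it and Nlrp6 (55.4%) above it. With the trends on GC content and transcript length taken out of each library, Pycard was at -2.39 in HH_WBI against HH_Ctrl (limma adjusted p = 4e-04) and was the sole member called there, with Nlrc4 at 0.64 (adjusted p = 0.0118) and Aim2 at 0.78 (adjusted p = 0.171). In HH_Ctrl against LL_Ctrl no member was called in this way, with Casp1 at -0.86 (adjusted p = 0.000875) and Naip1 at -0.76 (adjusted p = 0.0188), both still past the adjusted p. Whether the libraries of both modes were prepared alike is not stated, and preparation and mode cannot be told apart.

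The direct comparison of the irradiated groups asks whether the modes ended at different levels. With limma 0 of 13049 genes were called (0%), and 11.2% had an unadjusted p under 0.05. Of the 8 tested members 0 were called, 0 had an unadjusted p under 0.05 and 0 were without overlap, the last beside 17.1% of all genes. The intervals were wide: that of Pycard ran from -1.42 to 0.89, that of Casp1 from -1.09 to 0.73 and that of Nlrc4 from -0.24 to 0.88, so the intervals of Pycard and Casp1 hold differences past the fold limit.

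The difference of the responses, (HH_WBI minus HH_Ctrl) minus (LL_WBI minus LL_Ctrl), was fitted over all 12 libraries and called by the adjusted p alone. Nlrc4 was the 1 member of 8 called, at 1.31 (standard error 0.26, interval 0.75 to 1.87, limma adjusted p = 0.0181), where 7.37% of 12921 genes were called and 6.73% in this direction. It was 0.80 (adjusted p = 0.0532) with the GC and length trends taken out. Without LL_Ctrl 2 it was 1.31 (adjusted p = 0.0553) and without LL_Ctrl 3 1.28 (adjusted p = 0.0613). The call was thus lost without either of these controls, while the difference itself barely moved. Naip1 (1.45, adjusted p = 0.0531) and Casp1 (1.42, adjusted p = 0.0773) lay just outside the threshold, and with Nlrc4 they were the 3 members at an unadjusted p under 0.05, beside 24.3% of all genes. Both control groups enter this difference. For Nlrc4, Naip1 and Casp1, HH_WBI against LL_WBI was at 0.32, 0.13 and -0.18. HH_Ctrl against LL_Ctrl was at -0.995, -1.32 and -1.602 for the same genes. Without LL_WBI 2, Naip1 and Casp1 were called at 1.08 (adjusted p = 0.0483) and 0.92 (adjusted p = 0.0132), and without LL_WBI 3 at 1.71 (adjusted p = 0.012) and 1.74 (adjusted p = 0.015). Without LL_WBI 3, Casp4 (1.298, adjusted p = 0.0096) and Naip5 (1.47, adjusted p = 0.0222) were called as well. The LL response then rests on LL_WBI 1 and LL_WBI 2, both rich in pancreatic genes. With both of these left out instead, Casp4 was at -0.26 and Naip5 at -0.016, resting on LL_WBI 3 alone.

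Among the cytokines that caspase-1 processes, Il1b, the gene of IL-1β, was at 1.72, 1.61 and 3.09 FPKM in LL_Ctrl, 1.81, 1.46 and 10.2 FPKM in LL_WBI, 0.235, 0.111 and 0.686 FPKM in HH_Ctrl and 2.58, 1.77 and 1.37 FPKM in HH_WBI. HH_Ctrl was again the low group and LL_WBI 3 the high library. Il1b rose by 2.35 in HH_WBI against HH_Ctrl (standard error 0.50, limma adjusted p = 0.0103) and was lower in HH_Ctrl than in LL_Ctrl (log2 difference -2.49, adjusted p = 0.00529). Il18, the gene of IL-18, was far higher, at 102, 108 and 102 FPKM in LL_Ctrl, 106, 78.7 and 60.3 FPKM in LL_WBI, 74.4, 85.2 and 79.5 FPKM in HH_Ctrl and 80.7, 69.4 and 57.1 FPKM in HH_WBI. It was called in none of the comparisons, with -0.22 (interval -0.54 to 0.11, adjusted p = 0.252) in HH_WBI against HH_Ctrl.

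Of the 11 listed cytokine and receptor genes of the interleukin-1 family, 8 were tested in the HH comparison, with 5 called higher and 0 lower, beside 10% and 2.38% of all genes. The largest rise was that of Il1rn, the receptor antagonist that blocks IL-1 signalling, from 0.606, 0.762 and 1.08 FPKM in HH_Ctrl to 15.0, 14.1 and 15.6 FPKM in HH_WBI, a log2 difference of 4.06 (standard error 0.21, limma adjusted p = 0.000214). In LL_Ctrl it was at 2.75, 3.16 and 3.60 FPKM and in LL_WBI at 7.76, 18.1 and 44.96 FPKM, without overlap (log2 difference 2.52, adjusted p = 0.144). The others were Il1b, the receptors Il1r1 (2.25, adjusted p = 0.00171) and Il1r2 (1.28, adjusted p = 0.0291), the latter a decoy, and the co-receptor Il1rap (1.15, adjusted p = 0.0205). In HH_Ctrl against LL_Ctrl, where HH_Ctrl enters again, 5 of 8 were called lower, beside 11.9% of all genes: Il1b, Il1rn (-1.86), Il1r1 (-1.46), Il1r2 (-1.51) and Il1rap (-1.88). Il18bp, which neutralises IL-18, was called higher there (1.06, adjusted p = 0.00265), at 12.4, 15.2 and 13.5 FPKM against 7.56, 7.38 and 4.86 FPKM. In LL_WBI against LL_Ctrl 0 of 10 were called with limma and 1 had an unadjusted p under 0.05, beside 0.247% and 18.3% of all genes.

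Gsdmd, the gene of gasdermin D, was at 170, 170 and 165 FPKM in LL_Ctrl, 184, 125 and 224 FPKM in LL_WBI, 174, 198 and 232 FPKM in HH_Ctrl and 181, 255 and 237 FPKM in HH_WBI. The groups overlapped in both modes, with log2 differences of 0.04 (interval -0.52 to 0.59, limma adjusted p = 0.939) and 0.15 (interval -0.24 to 0.54, adjusted p = 0.512). Another branch of the family moved strongly. Gsdmc2 went from 10.0, 6.74 and 3.50 FPKM in LL_Ctrl to 0.251, 0.042 and 0.106 FPKM in LL_WBI and from 7.83, 6.62 and 9.95 FPKM in HH_Ctrl to 0.131, 0.021 and 0.126 FPKM in HH_WBI, with no overlap in either mode. It fell by 4.86 (adjusted p = 0.0192) and by 5.46 (adjusted p = 0.000283) on the log2 scale. Gsdmc4 fell by 6.62 (adjusted p = 0.0305), with LL_WBI 2 and LL_WBI 3 listed at 0, and by 5.96 (adjusted p = 0.000214), and Gsdmc3 fell by 4.18 in the HH mode (adjusted p = 0.000803). These gasdermin C genes are paralogs whose reads may be shared out. They were the 2 called of 9 tested executors of pyroptosis in LL, beside 0.247% of all genes. In HH they were the 3 called of 8, all lower, beside 2.38% of all genes called lower. Of the executors, 0 were called higher in either mode. The role of gasdermin C is less well defined than that of gasdermin D. Between the controls, 1 of 8 executors was called higher in HH_Ctrl, Gsdme (1.77, limma adjusted p = 0.00201), which caspase-3 cleaves. Another 1 was called lower, the ATP-gated channel P2rx7 (-1.04, limma adjusted p = 0.00515). Of all genes, 14.2% were called there, 11.9% lower.

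**Figure D5:**
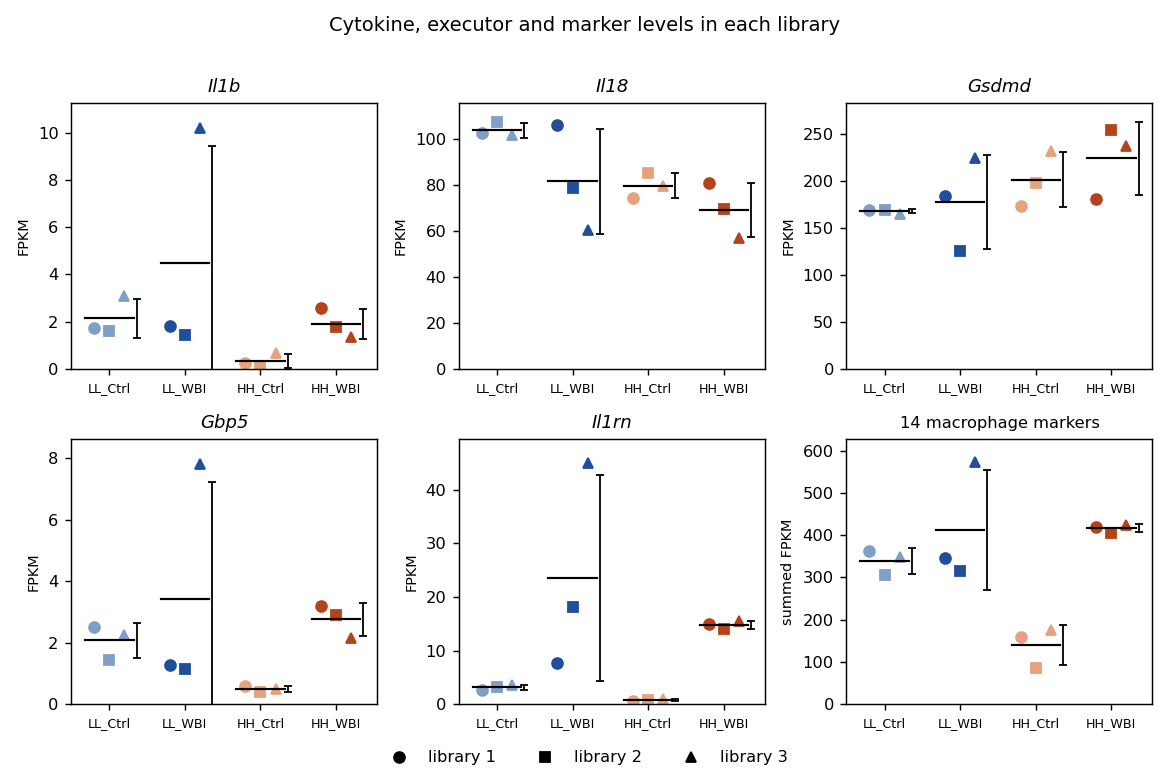
Level in FPKM (vertical axes, linear and starting at 0) of Il1b, Il18, Gsdmd, Gbp5 and Il1rn and summed FPKM of 14 macrophage markers in the 12 libraries, by group (horizontal axis). Symbols are libraries 1, 2 and 3, lines are means and bars 1 SD on each side, which for Il1b and Gbp5 in LL_WBI runs below 0 and is cut there. HH_Ctrl is the lowest group for Il1b, Gbp5, Il1rn and the markers (85.9 to 177 FPKM), and LL_WBI 3 is the highest library for these 4.

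Of 31 listed regulators and priming genes, 29 were tested in the HH comparison. Of these 6 were called higher, beside 10% of all genes, and 0 were called lower. The 6 were Nek7, a kinase that Nlrp3 needs, Casp12, Tlr2, which senses bacterial lipoproteins, and the guanylate-binding proteins Gbp2, Gbp3 and Gbp5, which help to open the way to Aim2 and Casp4. Gbp5 was at 0.598, 0.399 and 0.508 FPKM in HH_Ctrl and at 3.19, 2.91 and 2.17 FPKM in HH_WBI, and rose by 2.24 (limma adjusted p = 0.00136). Casp12 (2.11, adjusted p = 0.00196) and Gbp3 (1.99, adjusted p = 0.00216) followed in size, and Tlr2, at 1.00 (adjusted p = 0.0309), was at the fold limit. The median over the 29 was 0.45, beside 0.09 over all genes. Between the controls 6 of 29, beside 11.9% of all genes, were called lower in HH_Ctrl (Nek7, Casp12, Dhx15, Sugt1, Gbp3 and Gbp5) and 0 higher. In LL_WBI against LL_Ctrl 0 of 29 were called with limma, beside 0.247% of all genes. An unadjusted p under 0.05 was reached by 3, beside 18.3% of all genes. Of the other sensors, 0 of 11 were called with limma in the LL comparison, with 1 at an unadjusted p under 0.05, beside the same shares. In the HH comparison 0 of 10 were called, beside 12.4% of all genes, with Naip2 at 0.80 (limma adjusted p = 0.00402). There 3 of 10 had an unadjusted p under 0.05, beside 47.4% of all genes. Of the 10, 2 were called lower in HH_Ctrl than in LL_Ctrl, beside 11.9% of all genes. These were Naip2 (-1.03, limma adjusted p = 0.000272) and the helicase Dhx9 (-1.10, limma adjusted p = 0.000234). The difference of the responses was called higher for 2 of 11, beside 6.73% of all genes. They were Naip2 (1.26, limma adjusted p = 0.0408) and Dhx9 (0.87, limma adjusted p = 0.0332).

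Markers of macrophages, which use many of these genes, moved with the same groups. Their 14 genes summed to 305 to 362 FPKM in LL_Ctrl, 316 to 574 FPKM in LL_WBI, 85.9 to 177 FPKM in HH_Ctrl and 406 to 424 FPKM in HH_WBI, and none of the 14 was listed at 0 in any library. In HH_WBI against HH_Ctrl 12 of 14 were called higher, beside 10% of all genes. In HH_Ctrl against LL_Ctrl 11 of 13 tested were called lower, beside 11.9% of all genes. Both counts of markers were the same with the GC and length trends taken out. Paneth cell markers moved likewise, beside the same shares of all genes. Of these, 6 of 8 were called higher in the HH comparison and 8 of 8 were called lower in HH_Ctrl than in LL_Ctrl. Their sum was 7959 to 11092 FPKM in LL_Ctrl, 7046 to 30483 FPKM in LL_WBI, 1669 to 4386 FPKM in HH_Ctrl and 4033 to 18651 FPKM in HH_WBI, and none was listed at 0. The part of these cells in the values of Nlrc4, the Naip genes, Aim2, Casp1 and Il1b was not tested. In the difference of the responses, where Nlrc4 was called, 10 of 14 macrophage markers were called higher, beside 6.73% of all genes. Their median was 2.04, beside 0.18 over all genes. Pycard moved against the macrophage markers in the HH mode. In both modes it was lower after irradiation, as were most T cell markers and all tested B cell markers. The 8 T cell markers summed to 46.2 to 59.4 FPKM in LL_Ctrl, 30.0 to 33.1 FPKM in LL_WBI, 32.1 to 47.4 FPKM in HH_Ctrl and 22.7 to 34.3 FPKM in HH_WBI, and none was listed at 0. Their median log2 difference was -0.73 in the LL mode and -0.66 in the HH mode. In the LL mode 0 of 8 were called with limma and 6 had an unadjusted p under 0.05, beside 0.247% and 18.3% of all genes. In the HH mode 1 of 8 was called lower, beside 2.38% of all genes. The T cell marker Cd4 went the other way in the HH mode (mean 1.56 FPKM in HH_Ctrl and 2.85 FPKM in HH_WBI). The tested B cell markers had a median of -0.56 in the LL mode (2 tested) and -1.48 in the HH mode (6 tested), with 0 called in either. The 6 B cell markers summed to 56.5, 4.25 and 60.3 FPKM in HH_Ctrl and to 10, 10.2 and 7.61 FPKM in HH_WBI. HH_Ctrl 2, the highest library for Pycard (165 FPKM), was thus below every HH_WBI library in this sum. In HH_Ctrl against LL_Ctrl the T cell median was -0.36 and the B cell median 1.93, while Pycard was at 0.23. The part of T cells and B cells in the values of Pycard was not tested.

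For the 8 tested members, the most similar patterns over the 12 libraries were sought among 12920 genes as those with the smallest root mean square difference of centred log2 values. Nlrc4 was closest to Vps4b, Vps26a and Cul1 (0.09, 0.11 and 0.12), where the median gene lay at 0.55. Naip1 was closest to its paralog Naip2 (0.16), and Casp4 to Mob3c, Casp8 and Rnf128 (0.12, 0.20 and 0.22). Pycard was closest to E2f2, Tk1 and Ybx2 (0.33, 0.33 and 0.33, with a median of 1.11), and Nlrp6 to Hjurp, Aco1 and Mtfp1 (0.14, 0.14 and 0.14). Naip5 was closest to Bach1 (0.15), Casp1 to Adgrg7 (0.23) and Aim2 to Ushbp1 (0.36). Among the members themselves, Nlrc4 and Naip1 were 0.29 apart and Pycard and Nlrp6 0.56, against 1.33 for Pycard and Nlrc4. These distances describe 12 libraries of 4 groups and share whatever sets those groups apart, the base composition included.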

How the data were processed

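The 12 libraries, 3 in each of 4 groups, were assigned from the sample titles. The deposited values are FPKM per gene, which the authors obtained with StringTie, and counts were not used, so the depth is unknown and no interval for counting error is given. The labels describe removal of ribosomal RNA and the paper's methods oligo(dT) beads, which was not settled here. The submitters' processing notes list the aligner Bowtie 0.12.2 and, as builds, mm39, GRCm39 and mm8, none with a stated role, so coordinates are those of RefSeq on GRCm38.p6 for the printed sequences only. All 12 columns of values were used and 0 were left unmapped. Each comparison was fitted on log2(FPKM + 0.1) by limma 3.58.1 under R 4.3.3, letting the prior variance follow the mean level, and p-values were adjusted by Benjamini-Hochberg over all genes tested. The procedure was tested on simulated data that gave each gene the same spread in every group. The wider spread of LL_WBI was not simulated. GC content and length came from GENCODE transcripts for 21973 genes (99.6%). Alternatives were other pseudocounts and filters, a block for library number, median-ratio scaling, removal and rescaling of acinar genes, the adjusted p alone, all libraries in a common fit, other controls, GC and length trends removed, no variance trend, and each library left out.

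The members and lists were chosen with earlier results of these data known. All 9 members are named in every comparison, and of each pathway list up to 4 genes with the smallest p per comparison, with Il1b, Il18 and Gsdmd whatever their values. Where a sentence names all called genes of a list, more than 4 in a comparison, the others were added after their values were seen. The same holds for the named ileum and colon genes. Naip2 and Naip6 are given beside Naip1 and Naip5, and up to 3 genes per member are given for likeness. Python 3.11.15 with numpy 2.4.6, pandas 2.3.3 and matplotlib 3.10.9 served for tables and plots.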

Additional observations from a re-analysis of the deposited data

Results flagged for a closer look

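The response of Nlrc4, the partner of the Naip receptors, differed between the modes by a test of the difference itself. The difference, HH response minus LL response, was 1.31 on the log2 scale (limma adjusted p = 0.0181), with all 3 HH_WBI libraries above all 3 HH_Ctrl libraries (12.6 to 13.5 against 5.99 to 6.26 FPKM) and overlapping libraries in the LL mode (7.78 to 14.3 against 11.5 to 12.9 FPKM). The irradiated groups themselves were not called apart (0.32, adjusted p = 0.657), while the controls were at -0.995 in HH_Ctrl against LL_Ctrl (adjusted p = 0.00022). Macrophage markers moved with it, 10 of 14 called higher in the same comparison, beside 6.73% of all genes. Their median was 2.04, beside 0.18 over all genes, and their part in the result was not tested. It no longer passed with the GC and length trends removed (0.80), without LL_Ctrl 2 or without LL_Ctrl 3, and passed under each of the other alternatives run.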

How the results depend on the processing

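The count of members called was 0 in LL_WBI against LL_Ctrl and became 1 with all 12 libraries in a common fit, 1 with all 6 controls, 2 with the controls of the other mode, 3 without both libraries rich in pancreatic genes (chosen after seeing the data) and 0 to 2 with each library left out. Over all genes, 22 higher and 10 lower became 155 and 69, 142 and 64, 1323 and 289, and 1276 and 566 under the first 4 of these. In HH_WBI against HH_Ctrl it was 3, and 1 with a pseudocount of 1 FPKM, 7 with the adjusted p alone, 1 with all 6 controls, 1 with the GC and length trends removed and 2 to 4 with each library left out. Over all genes, 1280 higher and 304 lower became 686 and 191, 2817 and 1797, 514 and 278, and 854 and 499 under the first 4 of these. In HH_Ctrl against LL_Ctrl it was 2, and 0 with the GC and length trends removed (471 genes higher and 648 lower, from 291 and 1499) and 2 to 3 with each library left out. In HH_WBI against LL_WBI it was 0 under every alternative run. For the difference of the responses it was 1, and 2 with a mean of at least 2 FPKM, 2 with median-ratio scaling, 3 with acinar genes removed and rescaled, 0 with the GC and length trends removed, 2 without both pancreatic libraries and 0 to 5 with each library left out. With the replicate block it was 2 (Nlrc4 and Naip1, the latter at 1.45 with adjusted p = 0.0341), and the block changed no other count of members called. Same-numbered libraries did not all correlate above 0.1 (0.059, 0.172 and 0.239 in the HH mode, -0.035, 0.099 and 0.006 in the LL mode), so the numbers are not taken to pair libraries. Not every library correlated best with its own number.

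Signs turned mostly in LL_WBI against LL_Ctrl: Casp4 came to 0.001 with median-ratio scaling, 0.071 with acinar genes removed, 0.07 with all 6 controls, 0.23 with the other mode's controls, 0.95 without both pancreatic libraries and -0.61 to 0.22 with each library left out. Naip5 came to 0.036 with acinar genes removed, 0.12 with the other mode's controls, 0.86 without both pancreatic libraries and -0.62 to 0.32 with each left out. Nlrc4 came to 0.28 with all 6 controls, 0.78 with the other mode's controls, 0.22 without both pancreatic libraries and -0.43 to 0.00 with each left out. Naip1 came to 0.12 with all 6 controls and 0.78 with the other mode's, Casp1 to 0.38 with the other mode's, and Aim2 ran from -0.004 to 0.89 with each left out. In HH_WBI against HH_Ctrl, Casp1 came to -0.60 with all 6 controls, -1.40 with the other mode's and -0.28 with the GC and length trends removed, and Naip1 to -0.41 with the other mode's. In HH_Ctrl against LL_Ctrl, Nlrp6 came to 0.05 with median-ratio scaling and -0.22 to 0.066 with each left out, and with the GC and length trends removed Aim2 came to 0.40, Casp4 to 0.33 and Naip5 to 0.32. In HH_WBI against LL_WBI, Naip1 came to -0.038 with acinar genes removed and -0.24 to 0.39 with each left out, Pycard ran from -0.84 to 0.34, Aim2 from -0.20 to 0.70 and Casp1 from -0.68 to 0.14. In the difference of the responses Casp4 came to -0.26 and Naip5 to -0.016 without both pancreatic libraries, and Pycard ran from -1.07 to 0.11 with each left out. The cause of these changes was not tested. Pycard in HH_WBI against HH_Ctrl was called under every alternative run.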
